A study of Mus musculus with 6 samples.

Results

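The respiratory chain of the mitochondrial inner membrane passes electrons through complexes I to IV and stores their energy as a proton gradient, which ATP synthase, complex V, uses to make ATP. Most subunits are encoded in the nucleus and imported into the mitochondrion, and a small set is encoded by mitochondrial DNA and transcribed inside it from long precursors of both strands. Complexes I, III, IV and V hold subunits of both genomes, whereas complex II is wholly nuclear. The distal convoluted tubule, the nephron segment that the mDCT15 line comes from, is known for its density of mitochondria.

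The subunits were taken by name, as the genes whose symbol starts with Nduf, Uqcr, Uqcc, Cox plus a digit, or Atp5, together with Sdha to Sdhd, Cyc1, Cycs and the mitochondrial Nd, Co, Cytb and Atp genes. This gave 114 of the 20624 genes of the expression table, 107 of nuclear and 7 of mitochondrial DNA, and no symbol occurred on more than 1 row. By role, 77 of the nuclear genes encoded subunits of most tissues, 4 encoded tissue-restricted paralogs (Cox4i2, Cox6a2, Cox7a1 and Ndufa4l2) and 20 encoded assembly factors. The other 6 were Cycs, Cox7a2l, Atp5s and the retrocopies Ndufb4c, Cox6c2 and Atp5l-ps2.

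RNA was sequenced from 6 samples of mDCT15, a mouse cell line of the distal convoluted tubule, of which 3 were wild type and 3 were Pkd1-/- cells, edited at the gene of polycystin-1 with CRISPR-Cas9. A label field describes the edited cells as a knockdown of PKD1 instead. Cells of both genotypes were grown in the same serum-containing medium with no further agent, and the samples were numbered as biological replicates. The value used for each gene is the authors' mean normalized count over all 6 samples, which does not separate the genotypes and carries no spread, so the levels below describe the line as a whole and no test between wild type and Pkd1-/- cells was made. Pkd1 itself had a mean normalized count of 3175 over the 6 samples.

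The labelled tissue was set against a list of 13 markers of the distal convoluted tubule, of which 7 were measured. Wnk1, a kinase that governs distal salt transport, had a mean normalized count of 8468, and its partner Wnk4 had 413. The magnesium channel gene Trpm6 had 29.6 and Klhl3, which targets these kinases for degradation, had 5.70. Cnnm2, Kcnj16 and Kcnj10, the remaining measured markers of the list, had 643, 428 and 38.3. The defining transporter gene Slc12a3 and the calcium-binding protein genes Pvalb and Calb1 were not analysed here. Among the markers of other cells, Lrp2, of the proximal tubule, had 8826, while the other 3 markers of that segment, Cubn, Slc5a2 and Slc34a1, had 169, 2.77 and 2.04. Vim, of mesenchyme, had 17450 and Col1a1 had 201, while Pdgfrb, Col1a2 and Col3a1 had 4.48, 2.71 and 2.44. The epithelial genes Epcam and Krt8 had 115 and 0.98. The part of these mixed markers in the levels of the respiratory chain was not tested.

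Several members share sequence with other parts of the genome, so 3 pairs of stretches are shown before the values, each a gene beside a copy elsewhere in the mouse genome (build GRCm39, 5′ to 3′ on the strand of the gene). Reads were 42 bases long from each end of a fragment, and a read that fits equally well in 2 places is dropped by the counting settings used. Capitals mark the base that differs between gene and copy.

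mt-Atp8, chrM:7766-7825, plus strand: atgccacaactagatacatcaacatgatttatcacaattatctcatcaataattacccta
Copy of mt-Atp8, chr1:24653834-24653893, minus strand: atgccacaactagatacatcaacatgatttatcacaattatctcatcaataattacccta
mt-Nd3, chrM:9459-9518, plus strand: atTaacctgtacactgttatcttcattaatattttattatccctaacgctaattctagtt
Copy of mt-Nd3, chr1:24652141-24652200, minus strand: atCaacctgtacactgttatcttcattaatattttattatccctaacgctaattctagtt
Cycs, first coding bases, chr6:50542581-50542640, minus strand: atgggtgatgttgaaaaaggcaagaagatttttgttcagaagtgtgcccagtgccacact
Copy of Cycs, chr19:24853117-24853176, plus strand: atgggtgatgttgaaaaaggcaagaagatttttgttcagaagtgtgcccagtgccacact

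The mt-Atp8 stretch, from the start of a gene of an ATP synthase membrane subunit, was identical to its copy on chromosome 1. Over the whole 348 bases of mt-Nd3, a core subunit gene of complex I, 1 base differed, the one in capitals. The Cycs pair, from the gene of the cytochrome c that carries electrons between complexes III and IV, was also identical, and so were all 315 coding bases of Cycs and the copy at chr19:24853117-24853431.

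The mitochondrially encoded genes were among the most abundant members, although the nuclear Atp5b, with a mean normalized count of 26132, lay above 4 of the 7. The highest was mt-Co1, the catalytic subunit of complex IV, with a mean normalized count of 73780, which was 22.4% of the summed mean of the 114 genes. mt-Nd1 and mt-Cytb, which encode a core subunit of complex I and the cytochrome b of complex III, followed with mean normalized counts of 30643 and 30470. mt-Nd5, mt-Nd2 and mt-Nd4, all core membrane subunits of complex I, had 17433, 11800 and 11019. mt-Nd6, the subunit gene on the opposite strand of the mitochondrial genome, was lowest with 3766.

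Since a longer transcript yields more fragments, levels were compared between genes per kb of exon. On this scale mt-Co1 reached 47754 per kb, and 0 of the 20122 genes with an exon length ranked above it. By the length of the canonical transcript, used further below, mt-Co1 was not the highest, as the table's maximum was 55883 per kb. mt-Nd1 had 32020 per kb and mt-Cytb 26635, followed by mt-Nd2 at 11368, mt-Nd5 at 9558, mt-Nd4 at 7996 and mt-Nd6 at 7255. The levels of these genes, of which all but mt-Nd6 lie on a single strand, therefore ranged over 6.58-fold. mt-Nd6 stood at 0.76 times the level per kb of mt-Nd5, the gene whose last 14 bases it overlaps on the other strand.

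The 6 other protein-coding genes of the mitochondrial genome, mt-Co2, mt-Atp8, mt-Atp6, mt-Co3, mt-Nd3 and mt-Nd4l, were not analysed here. In the reference genome between 99.0% and 100% of their 42-base windows also occurred outside the gene. These genes lie next to one another, from mt-Co2 at chrM:7013-7696 to mt-Nd4l at chrM:9877-10173, inside a stretch that is repeated on the minus strand of chromosome 1, at chr1:24650616-24655265. The repeat is 4650 bases long and takes in 8 mitochondrial genes, 6 of them whole. Gene by gene, mt-Co2, mt-Atp8, mt-Atp6, mt-Co3 and mt-Nd4l had 0 different bases in the copy.

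The same copy reaches into 2 of the measured genes. It holds the last 479 bases of the 1545 of mt-Co1 and the first 876 of the 1378 of mt-Nd4, with 0 different bases in both. In all, mt-Nd4 had 62.5% of its windows elsewhere and mt-Co1 55.7%, as 28.98% of the coding windows of mt-Co1 lay on chromosome 1 and 33.0% in another copy at chr2:22478203-22479659. Of the other measured genes, mt-Nd5 had 10.99% of its windows elsewhere, mt-Nd2 9.83%, mt-Cytb 0.82%, and mt-Nd1 and mt-Nd6 0%. When only windows found once were counted as length, mt-Co1 rose to 110781 per kb and mt-Nd4 to 21950 per kb, against 33453 for mt-Nd1 and 7878 for mt-Nd6, and the range of levels widened to 14.1-fold. This scale takes every read from a shared window as lost, although the other end of a read pair can place it, so it is an upper setting and the true loss was not tested.

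**Figure D1:**
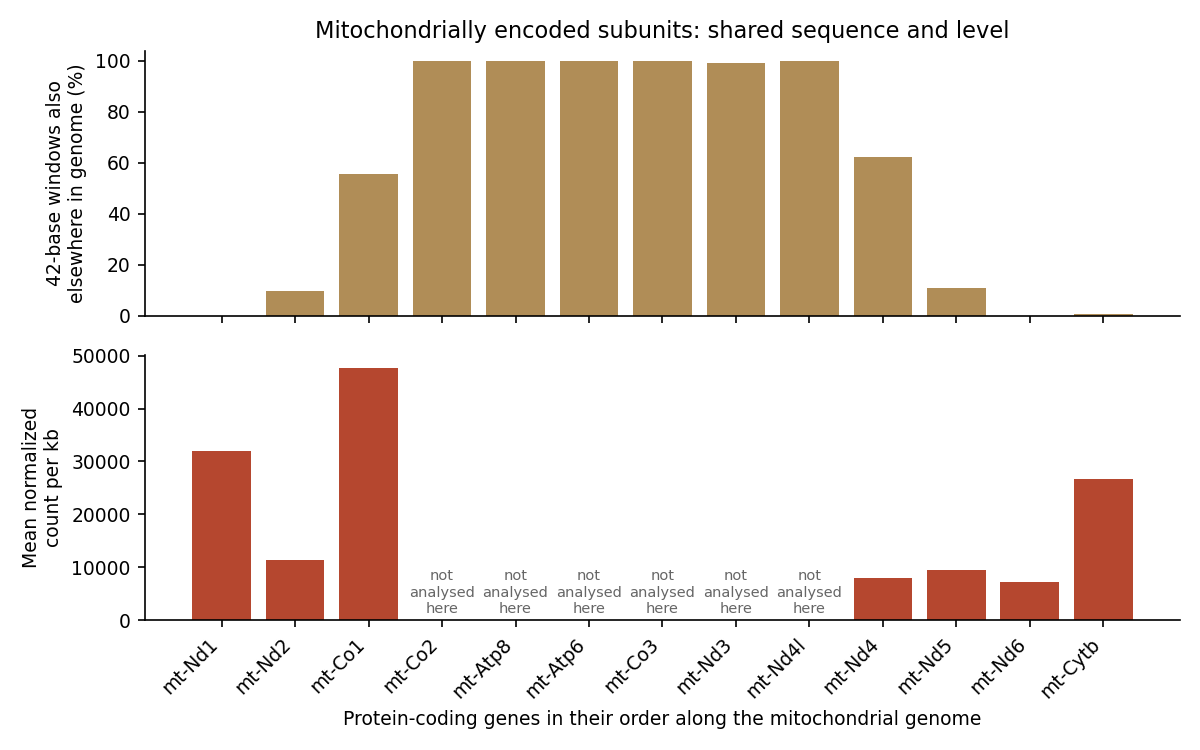
The 13 protein-coding genes of the mitochondrial genome in their order, with the percent of their 42-base windows that also occur elsewhere in the mouse genome (upper bars) and the mean normalized count per kb (lower bars, linear axis from 0). The 6 genes marked as not analysed here form the run with at least 99.0% of windows elsewhere, and the highest bar is mt-Co1 at 47754 per kb.

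The copies themselves had few counts, but reads that fit gene and copy equally well are dropped from both. These low counts therefore do not show how far the copies are transcribed. The annotated pseudogenes inside the chromosome 1 repeat had mean normalized counts between 1.73, for Gm28439, and 13.8, for Gm28438, which lies over the copy of mt-Nd3, the copied gene with a differing base. Gm28661, over the copy of mt-Co2, had 4.51, and Atp6-ps, over the copies of mt-Atp8 and mt-Atp6, had 3.40. On chromosome 2, Gm13340, over the copy of mt-Co1, had 21.8 and Gm13341, over a part of mt-Co2, had 8.0. Mitochondrial ribosomal RNAs, in libraries depleted of ribosomal RNA, had mean normalized counts of 7104 for mt-Rnr1 and 9009 for mt-Rnr2.

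The 81 nuclear subunit genes, paralogs included, had a median level of 322 per kb, and the 7 mitochondrial genes one of 11368 per kb, which was 35.3 times higher. The ranges did not overlap on this scale: the lowest mitochondrial gene, mt-Nd6, stood 1.28 times above Atp5b, the highest nuclear one at 5646 per kb. The union of all annotated exons counts many rarely used exons as length, so the levels were also taken per kb of the canonical transcript of each gene. The nuclear median was then 977 per kb, the mitochondrial genes were 11.6 times higher, and Atp5b, at 13568 per kb, passed the lowest mitochondrial gene, the only nuclear subunit that did so. Genes are not replicates and these medians were compared without a test.

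In summed mean normalized count, the 114 genes made up 1.97% of the table, 1.07% from the 7 mitochondrial and 0.898% from the 107 nuclear genes. With 6 other mitochondrial protein-coding genes outside this sum, the 7 analysed held 54.3% of the members' sum. Their share was 75.3% of the summed level per kb and 54.3% of the summed level per kb of canonical transcript. Without the members that had at least 50% of their coding windows elsewhere, mt-Co1, mt-Nd4 and Cycs among them, it was 39.3%.

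**Figure D2:**
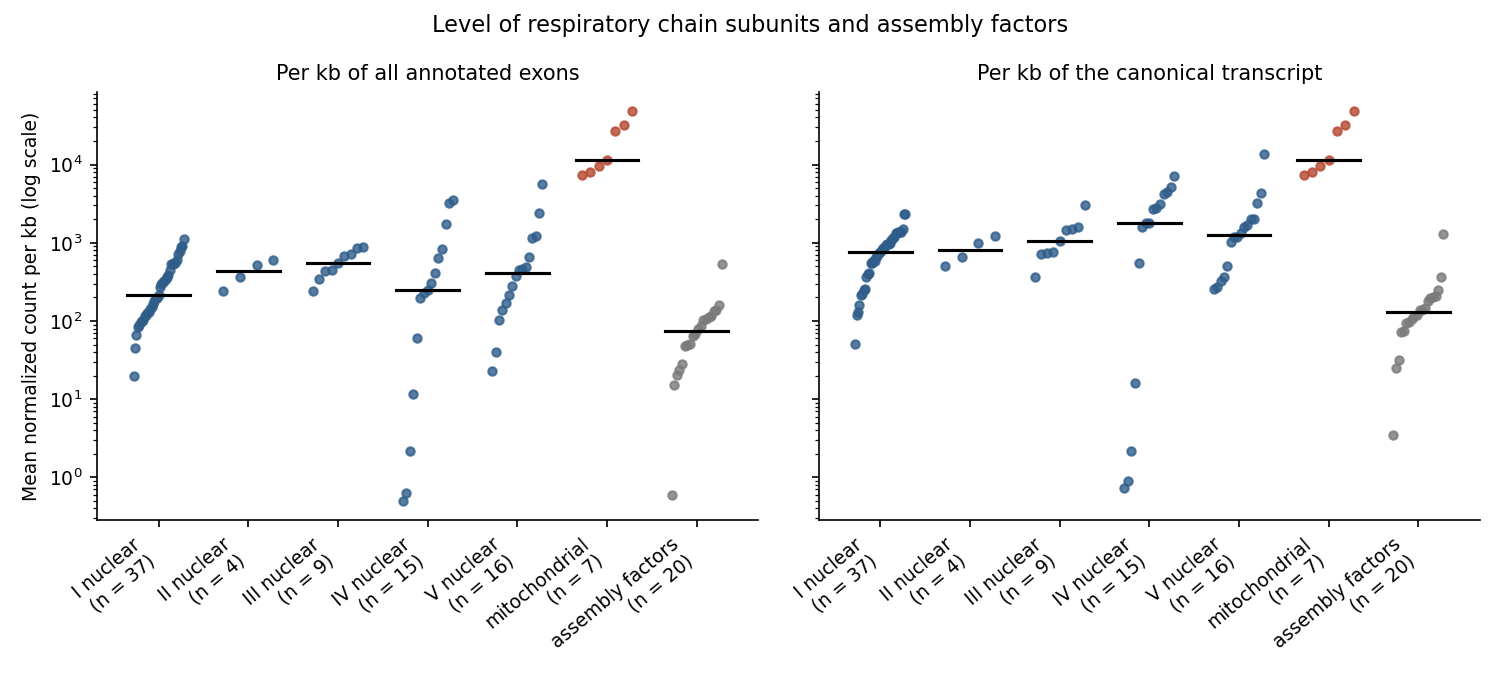
Mean normalized count per kb (log axis) of nuclear subunits of complexes I to V, mitochondrially encoded subunits and assembly factors, divided by the length of all annotated exons (left) or of the canonical transcript (right). Each point is a gene and each black line a median. The mitochondrial genes lie above every nuclear group, with Atp5b of complex V overlapping them on the right only.

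Nuclear subunit genes were abundant against the rest of the table. Among the 77 genes of common subunits, 71 lay above the median protein-coding gene, which had 72.7 per kb, and 74 lay above it per kb of canonical transcript, where that median was 141. Of the 77, 42 (54.5%) were within the top 10% of all genes of the table per kb, and 56 (72.7%) per kb of canonical transcript. The 4 lowest of the 81 nuclear subunit genes were the tissue-restricted paralogs, which are described with the isoforms.

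Complex I, the NADH dehydrogenase, had the largest nuclear set, 37 genes with a median of 214 per kb (763 per kb of canonical transcript). The accessory subunit genes Ndufc2, at 920 per kb, and Ndufa2, at 891 per kb, were among its highest. The lowest were Ndufb2, at 19.5 per kb, and Ndufab1, the mitochondrial acyl carrier protein, at 44.6 per kb. Per kb of canonical transcript Ndufb2 was again the lowest, at 50.9, followed by Ndufs6, at 118, while Ndufab1 had 214 and Ndufc2 and Ndufa2 had 1183 and 943. The 7 genes of the core matrix arm, which bind the flavin and the iron-sulfur clusters, had a median of 360 per kb, and the 30 accessory genes had one of 188. Per kb of canonical transcript the medians were 1082 and 711, in the same order.

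Complex II, succinate dehydrogenase, joins the citric acid cycle to the chain, and its 4 genes lay close together. Sdhd and Sdhc, the membrane anchors, had 601 and 519 per kb, Sdha, the flavoprotein, 363, and Sdhb, the iron-sulfur subunit, 243. Sdhd was again the highest per kb of canonical transcript, at 1221, and Sdhb the lowest, at 503.

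Complex III, the cytochrome bc1 complex, had 9 nuclear genes between 240 and 882 per kb, with a median of 554. Cyc1, which encodes cytochrome c1, was highest at 882 per kb, followed by the small subunit genes Uqcrb at 869 and Uqcrh at 709. Uqcr11 was lowest at 240 per kb and Uqcrc2, a core protein gene, next at 339. Per kb of canonical transcript Uqcr10, another small subunit gene, was highest at 3004, with Cyc1 at 1600, and Uqcr11 was again the lowest at 364. Their mitochondrial partner, mt-Cytb, stood at 26635 per kb.

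Complex IV, cytochrome c oxidase, had 15 nuclear genes with a median of 246 per kb, or 410 per kb for the 11 left without the paralogs. Cox6a1, Cox8a and Cox4i1 were its highest at 3572, 3248 and 1758 per kb, and the same 3 were highest per kb of canonical transcript, at 4454, 5137 and 7060. Among its common subunits Cox7c was lowest, at 60.9 per kb, and Ndufa4, first assigned to complex I by name and now known as a subunit of complex IV, was next at 194 per kb. Per kb of canonical transcript Cox7c was again the lowest, at 552, but Ndufa4 had 3170 and lay above Cox6b1, at 2821, and Cox7b, at 2713. On that scale the order of the complexes changed as well: complex IV then had the highest nuclear median, 1784, and complex I stayed the lowest at 763. Cox6c went from 227 per kb to 4256, as its exons span 9416 bases in union and its canonical transcript 503.

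Complex V, ATP synthase, had 16 nuclear genes with a median of 413 per kb. Atp5b and Atp5a1, the catalytic and the non-catalytic subunit of the F1 head, had mean normalized counts of 26132 and 10598. Their proteins occur in equal number in the enzyme, but the mean of Atp5b was 2.47 times that of Atp5a1, and its level was 2.36 times higher per kb and 3.16 times higher per kb of canonical transcript. Atp5b alone made up 18.4% of the summed mean of all nuclear subunit genes. Atp5g3 followed at 1216 per kb, and Atp5l and Atp5g2 were lowest at 22.8 and 40.7 per kb. Per kb of canonical transcript the lowest were instead Atp5mpl, at 256.005, and Atp5o, at 271, with Atp5l at 325 and Atp5g2 at 363.

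Assembly factors, which build the complexes and are not part of the finished enzymes, were lower. The 20 with a name of the pattern had a median of 73.9 per kb, and 10 of them lay above the protein-coding median. In complex I the highest was Ndufaf8, at 137 per kb, and the lowest Ndufaf6, at 20.5, whereas per kb of canonical transcript Ndufaf7 was highest, at 194, and Ndufaf1 lowest, at 72.6. In complex III, Uqcc2, which is needed for cytochrome b synthesis, had 533 per kb and Uqcc3 had 105.3. In complex IV, Cox15, which makes heme A, had 160 per kb, and Cox16 had 0.59 per kb with a mean normalized count of 7.05. Outside the name pattern, 29 of 31 listed assembly factors were measured, with mean normalized counts from 23.6, for the copper chaperone Sco2, to 2010, for Coa5.

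Several subunits exist as alternative isoforms, and in each pair with a tissue-restricted form that form was barely counted. Cox4i1, the common form of subunit 4, had a mean normalized count of 5528 and Cox4i2, its lung and hypoxia form, 0.68. Cox6a1 had 2543 and its heart and muscle form Cox6a2 had 1.48. Cox7a2 had 1452 and its heart and muscle form Cox7a1 had 7.07, while the related Cox7a2l, which acts in joining complexes III and IV, had 975. Ndufa4 had 1677 and the hypoxia-induced Ndufa4l2 had 0.72. Cox6b1, Cox7b and Cox8a had 1856, 2751 and 2897, and their testis or muscle paralogs were not analysed here.

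The 3 genes of the c subunit of ATP synthase encode the same mature protein and differ in their import sequences. Atp5g3 had a mean normalized count of 3206, Atp5g1 622 and Atp5g2 266, so Atp5g3 made up 78.3% of their sum of 4093. The coding windows of Atp5g3 had no match elsewhere, those of Atp5g1 matched in 74.4% and those of Atp5g2 in 98.6%. A retrocopy of Atp5g1, Gm10039 at chr11:100252569-100252913, had a mean normalized count of 194.

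**Figure D3:**
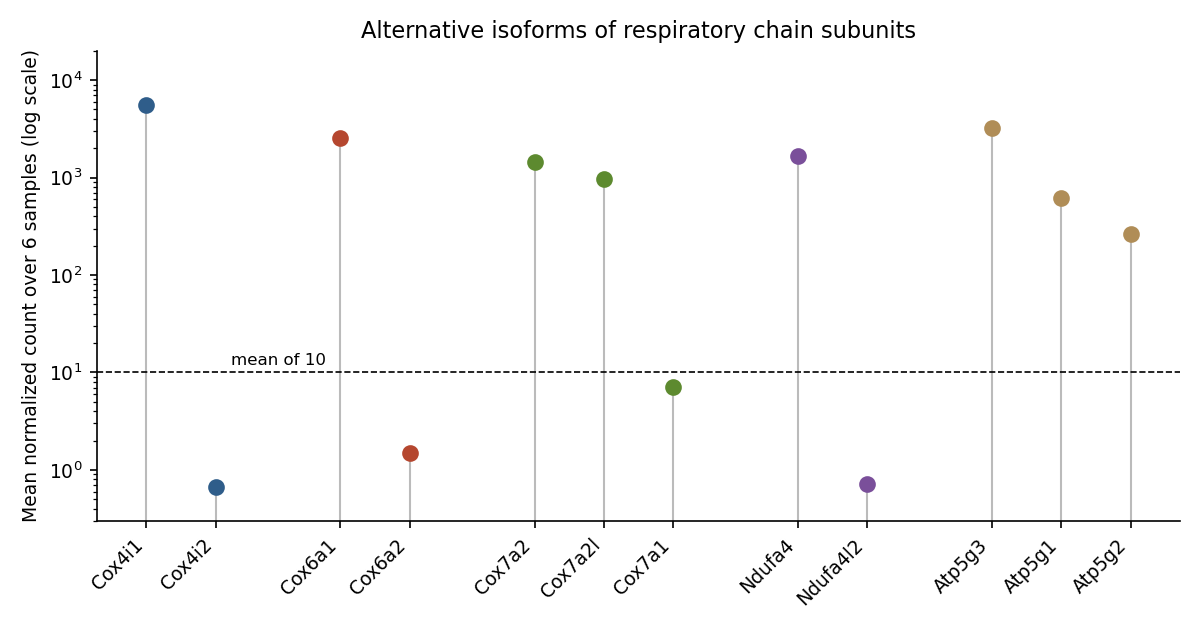
Mean normalized count over the 6 samples (log axis) of alternative isoforms of 5 subunits, 1 point per gene and 1 colour per subunit. Cox4i2, Cox6a2, Cox7a1 and Ndufa4l2 lie under a mean of 10 (dashed line), and Cox4i1, Cox6a1, Cox7a2 and Ndufa4 lie above 1000.

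In all, 8 of the 114 genes had a mean under 10. They were the 4 paralogs above, Cox16, and the 3 retrocopies Atp5l-ps2, Cox6c2 and Ndufb4c, with mean normalized counts of 0.85, 1.02 and 1.66. The same 3 retrocopies and the genes mt-Nd4 and mt-Co1 had the largest shares of exon windows elsewhere. Ndufb4c had 100% of its windows elsewhere, Atp5l-ps2 42.1% and Cox6c2 36.8%.

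Nuclear subunit genes often have processed copies as well. Of the 77 common subunits, 37 (48.1%) had no coding window elsewhere, against 74.1% of the protein-coding genes of the table, and 8 (10.4%) had at least 50% elsewhere, against 4.54%. Those 8, named here for their shares, were Atp5g2, Ndufab1, Atp5g1, Ndufs5, Ndufb4, Uqcrb, Cox7c and Cox5b. Their median level was 93.9 per kb, against 285 for the 32 genes with some shared windows and 436 for the 37 with none. Per kb of canonical transcript these medians were 550, 935 and 1082. Not all of the 8 followed this order. Uqcrb, at 869 per kb with 65.8% of its coding windows elsewhere, lay above each of these medians. Cox5b, at 410 per kb, lay above that of the genes with some shared windows. Per kb of canonical transcript Cox5b (1590) and Uqcrb (1450) lay above each median, and Atp5g1 (1016) above that of the genes with some shared windows.

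Over the 77 genes, Spearman's rho between the share of coding windows elsewhere and the level was -0.32 per kb and -0.20 per kb of canonical transcript. The share also ran with coding length, with a rho of -0.25. The genes share the same libraries, those with a larger share elsewhere tended to be shorter, and the part of lost reads in their levels was not tested.

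**Figure D4:**
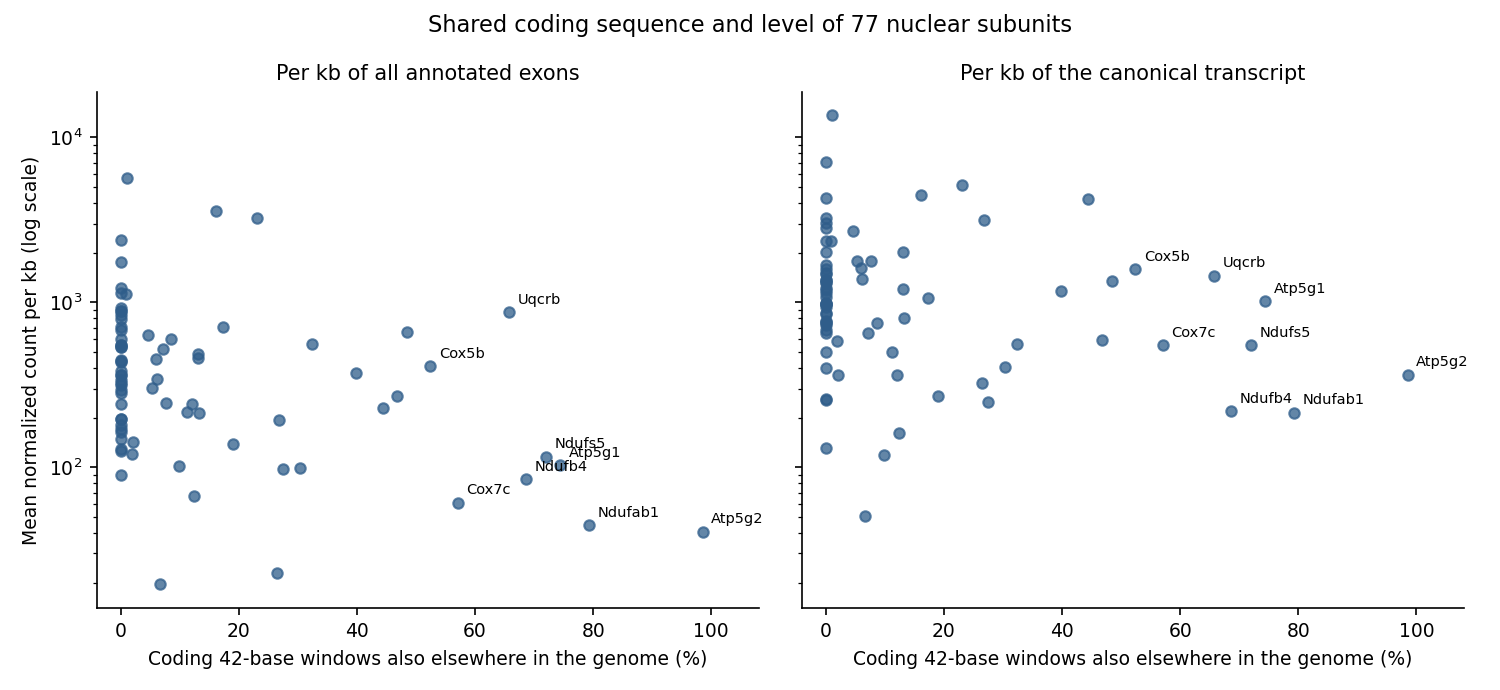
Percent of coding 42-base windows that also occur elsewhere in the genome (x axis) against mean normalized count per kb (log y axis) for the 77 common nuclear subunits, per kb of all exons (left) and of the canonical transcript (right). Each point is a gene, and the 8 genes with at least 50% are named, from Cox5b at 52.4% to Atp5g2 at 98.6%.

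Counted as groups of at least 42 matching window positions with gaps up to 5000 bases, 27 nuclear members had 62 places elsewhere. Of these places, 43 overlapped an annotated pseudogene. Sdhc had 10 of the places, with 42 to 49 matches each, although only 29 of its coding windows occurred elsewhere. Its matches recurred within a place and were scattered, as over chr3:94608389-94632001, so these places need not be copies of the gene. Few of the pseudogenes came near their parent gene in counts. Ndufa12-ps, at chr5:130217234-130217612, had a mean normalized count of 627 against 738 for Ndufa12 itself, an accessory subunit gene of complex I with 46.8% of its coding windows elsewhere. Gm6969 had 178 against 975 for Cox7a2l, Gm5436 had 66.9 against 711 for Atp5o, and Ndufs5-ps had 47.4 against 303 for Ndufs5. How the reads of these pairs divide between gene and copy is uncertain.

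Cycs had the largest share among the nuclear members with coding windows. All of its coding windows occurred elsewhere, whereas over all its exons the share was 30.03%, and its mean normalized count was 607 (155 per kb). Its partner in complex III, Cyc1, had 0% of its coding windows elsewhere and a mean of 2436.

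Exons of 68 members overlapped an exon on the other strand, a count that was not taken over the other genes of the table. The levels of such partners were often far apart. Ndufa13 had a mean normalized count of 1428 and Tssk6, a kinase gene that shares 1039 bases with it, had 10.3. Uqcrc2 had 1687 and Pdzd9, with 1342 shared bases, had 1.40. Where both partners were high the counts cannot be assigned from these means: Cox20, an assembly factor gene with a mean of 157, shares 3952 bases with Hnrnpu, which had 15412, and Atp5j, with 1803, shares 1995 bases with Gabpa, which had 1696. The study's methods give default settings for the counting tool, which take the forward strand, whereas the library kit marks the opposite one. Which strand was in fact counted was not tested. This bears on every count here, mt-Nd6 against mt-Nd5 included.

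Gabpa encodes the DNA-binding part of GABP, an ETS factor that, with NRF1 and YY1, is known to act on promoters of nuclear respiratory genes. Promoters, taken as 250 bases before to 50 after each RefSeq start in build GRCm38.p6, were searched on both strands for the core letters CGCATGCG of NRF1 sites, CCGGAAG of ETS sites and AAGATGGC of YY1 sites, no 2 of which overlap in the stretches shown. Of the 77 common subunits, 64 (83.1%) matched a promoter. Those not matched included Atp5a1, Atp5mpl, Cox4i1, Cox6c, Cyc1, Ndufa2, Ndufb9, Ndufs1, Sdhc, Uqcrb, Uqcrc2 and Uqcrq.

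The NRF1 core was in 9 of the 64 promoters (14.1%), against 2.77% of the promoters of all 17492 protein-coding genes of the RefSeq table and 3.87% of those of the 12106 genes of the expression table that matched a promoter. The ETS core was in 16 (25.0%), against 12.9% and 18.1% of these backgrounds, and the YY1 core in 10 (15.6%), against 3.57% and 4.79%. At least 1 core was found in 29 of the promoters, as 24 had 1 of the 3, 4 had 2 and Atp5j had all 3, while 35 had none. The share with at least 1 core was not taken over the backgrounds. The median level was 215 per kb for subunit genes with the NRF1 core and 344 without, 329 with and 318 without the ETS core, and 304 with and 352 without the YY1 core. A match of letters is a description and not a bound site.

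The promoter stretches of Atp5j, which holds all 3 cores, of Atp5l, which holds 2 at close distance, and of Cycs are shown from RefSeq, with the cores in capitals on either strand.

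Atp5j, GRCm38.p6 chr16:84835020-84835133, minus strand: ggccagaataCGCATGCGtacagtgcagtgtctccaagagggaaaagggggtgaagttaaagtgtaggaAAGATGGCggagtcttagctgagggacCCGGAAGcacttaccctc
Atp5l, GRCm38.p6 chr9:44920937-44920992, minus strand: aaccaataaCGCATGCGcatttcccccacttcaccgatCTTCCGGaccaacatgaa
Cycs, GRCm38.p6 chr6:50566613-50566640, minus strand: catgctagctCGCATGCGcgcgcacaaa

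Atp5j and Gabpa overlap on opposite strands, so this stretch lies in the neighbourhood of both genes. The Atp5l core of the ETS kind reads CTTCCGG here, its letters on the other strand.

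The regulators of the chain were all measured. Each of the 19 listed genes had a mean normalized count of at least 10, from 30.9 for Ppargc1b to 2681 for Lrpprc, which stabilises mitochondrial messenger RNA. Ppargc1a, the coactivator of mitochondrial biogenesis, had 1395, Yy1 had 1768, Gabpa 1696 and Nrf1 955. Tfam, which packages mitochondrial DNA and starts its transcription, had 1148, and the mitochondrial RNA polymerase gene Polrmt had 866. Ppargc1b and the termination factor gene Mterf1a, with 37.2, were the only ones under 100.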

How the data were processed

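Total RNA of 3 wild type and 3 Pkd1-/- mDCT15 samples was purified with silica columns, depleted of ribosomal RNA (KAPA RNA HyperPrep with RiboErase) and sequenced from both ends at 42 bases. Per the labels and the study's methods, reads were trimmed with Trim Galore 0.4.5, aligned to GRCm39 with STAR 2.7.5a and counted per gene with HTSeq 0.11.0 at default settings, and DESeq2 1.22.0 in R 3.5.3 normalized the counts. The deposited table holds, for 20624 genes, 1 signal column used here, the authors' mean normalized count over all 6 samples. It sums to 16746088, with a median of 104.5 and a lowest value of 0.62. The depth of each sample is unknown, so no interval is given. Its 5 columns of the authors' comparison of the genotypes (fold change, error, statistic and p-values) were not used, and 0 columns lacked a match.

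Lengths and gene positions came from GENCODE vM39 on GRCm39, for 20122 of the genes (97.6%). The annotation used for the counts, Ensembl, is another release. Levels were divided by the union of all exons of a gene, in kb, or by its canonical transcript. All 42-base windows inside an exon, without those across exon junctions, were searched in the whole genome on both strands (python 3.11.15, numba 0.67.0). Places were groups of at least 42 matching window positions with gaps up to 5000 bases, and a window that recurred within a place was counted each time. The search was tested on a simulated genome, where 6459 of 6459 windows were counted as by plain string search. Named genes were all mitochondrial members, the 3 highest and 2 lowest subunits per kb of each complex, isoform pairs, members with a mean under 10, the 5 with the largest share of exon windows elsewhere, the highest and lowest assembly factors of complexes, and listed genes. Others were chosen after their values were seen. A gene that this rule names is not reported here. The members and lists were chosen with earlier results of these data known.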

Additional observations from a re-analysis of the deposited data

How the results depend on the processing

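No paired analysis was possible because the value used is a mean over all 6 samples and comes from no test. For the same reason the planned fits of counts per sample (replicate block, DESeq2, no count filter, each replicate left out) were not run. With no spread between samples, a value was taken as moved when it changed by more than 1.5-fold. The choice of length moved most medians. The nuclear median of 322 per kb became 550 per kb of the longest transcript, 977 per kb of the canonical transcript (chosen after seeing the data), 976 with no length and 196 over all nuclear members. The mitochondrial median of 11368 per kb became 17433 with no length and 21950 over windows found once, also chosen after seeing the data. Their ratio of 35.3 became 20.7, 11.6, 17.9 and 58.0 under those first 4 settings and 56.2 over windows found once, so the mitochondrial median was higher in each. By longest transcript, complex I moved to 480, IV to 514 and V to 751 per kb, and by canonical transcript complexes I to V moved to 763, 816, 1065, 1784 and 1273. Complex IV moved to 410 without paralogs. The filters on low means, the count of members under 10 (6 under 5, 8 under 20), the mitochondrial share of the sum and the motif shares moved by at most 1.5-fold, which the NRF1 core reached (14.1% to 9.38% with 100 bases before the start).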
